A study of Mus musculus with 9 samples.

Results

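The Zfp zinc finger genes of MC38 cells, a mouse colon carcinoma line, were followed across 9 RNA-seq libraries. They were chosen by symbol, as Zfp followed only by digits, with Zfp36 left out because its protein carries another kind of finger, and by a floor of at least 200 read counts summed over all 9 libraries. Of 349 genes with such a symbol in a table of 16509 genes, 309 passed the floor, and all 309 entered the test, which covered 11949 genes. Libraries were made from Ctrl cells, from cells given Cu-Cys (copper and cystine) and from cells given Cadict, a nanodrug that carries copper, cystine and glucose oxidase and is directed to EGFR by the GE11 peptide, with 3 libraries each. The Ctrl cells received DMSO by the sample labels and PBS by the text of the study, and neither source gives a dose or a time for these libraries. All 3 groups are 1 cell line in culture, and no source says whether the 3 libraries of a group came from separate cultures, so p-values measure the spread between these libraries.

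A C2H2 zinc finger is a short fold in which a pair of cysteines and a pair of histidines hold a zinc ion, and tandem fingers joined by a conserved linker read DNA bases. Many Zfp genes also encode a KRAB box, which recruits Trim28 (KAP1) and through it the histone methyltransferase Setdb1 to silence retroelements and imprinted loci. Other genes that share the symbol act on RNA, ribosomes or ubiquitin.

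The stretches that follow were taken from GENCODE M21 on GRCm38 and show the finger frame that most of these genes share, in the 4 largest qualifying falls in Cadict against Ctrl with a linked finger and the 4 largest rises with a finger inside 1 exon. Each is coding sequence on the gene's own strand, 5′ to 3′, from the first cysteine codon to 5 codons past the last histidine codon, and the capitals mark the codons of the 2 cysteines and 2 histidines.
Zfp41, lower, chr15:75618465-75618542, plus strand, exon 2 of 3: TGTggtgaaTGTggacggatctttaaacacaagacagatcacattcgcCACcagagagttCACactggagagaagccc
Zfp763, lower, chr17:33019252-33019329, minus strand, exon 4 of 4: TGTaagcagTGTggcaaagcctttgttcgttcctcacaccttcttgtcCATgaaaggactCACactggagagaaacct
Zfp386, lower, chr12:116059804-116059881, plus strand, exon 3 of 3: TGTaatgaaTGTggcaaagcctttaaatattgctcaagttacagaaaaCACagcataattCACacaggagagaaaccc
Zfp661, lower, chr2:127577631-127577708, minus strand, exon 6 of 6: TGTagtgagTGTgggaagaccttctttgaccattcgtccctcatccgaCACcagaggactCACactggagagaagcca
Zfp622, higher, chr15:25984565-25984648, plus strand, exon 1 of 6: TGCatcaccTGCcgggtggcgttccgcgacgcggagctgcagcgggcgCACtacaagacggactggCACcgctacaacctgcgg
Zfp979, higher, chr4:147613315-147613392, minus strand, exon 5 of 5: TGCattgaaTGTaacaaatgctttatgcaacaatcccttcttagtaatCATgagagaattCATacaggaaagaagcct
Zfp672, higher, chr11:58316723-58316800, minus strand, exon 5 of 5: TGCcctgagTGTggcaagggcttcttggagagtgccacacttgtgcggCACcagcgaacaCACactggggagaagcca
Zfp978, higher, chr4:147390772-147390849, plus strand, exon 5 of 5: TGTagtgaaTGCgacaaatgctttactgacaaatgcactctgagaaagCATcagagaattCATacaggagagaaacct
The 4 lower genes, Zfp672 and Zfp978 hold the usual spacing, with 2, 12 and 3 codons between the marked codons, followed by the codons of the conserved linker. The linker was a condition for choosing the 4 lower genes. Zfp979 has the same spacing, but its stretch does not match the linker. The stretch of Zfp622 has 5 codons between its histidines and runs on without that linker. Between pairs of the 6 linked stretches, 40 to 56 of 78 bases were identical. A finger followed by the linker inside 1 exon was found in 235 of the 309 genes.

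Zfp genes were mostly low in level. Their median in Ctrl cells was 7.72 TPM (the authors' unit of transcript number, which is per length), against 21.9 TPM over all tested genes, and the range of Ctrl means ran from 0.557 TPM to 201 TPM. The highest Ctrl means on the TPM scale belonged to Zfp207 (BuGZ, a kinetochore and spindle protein) at 201 TPM, Zfp991 at 96.6 TPM, Zfp106 (an RNA-binding protein) at 80.0 TPM, Zfp330 (a nucleolar protein) at 76.6 TPM and Zfp422 (Krox-26) at 62.6 TPM. Reads of Zfp991 are uncertain, since 82.2% of its 50-base stretches also occur in transcripts of another annotated gene. Over the 309 genes the median of this shared part was 0.6%, and 61 genes had 10% or more.

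At the floor, Zfp112 (207 counts in all) and Zfp300 (226.34 counts) lay just inside, and Zfp600 (199.67 counts) and Zfp69 (196 counts) just outside. The floor sums all groups, so a gene could pass through the group in which it was high. Without the Ctrl libraries 285 of the 309 genes would still have passed it, without the Cu-Cys libraries 291 and without the Cadict libraries 307.

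Library totals lay between 17905771 and 18293056 counts. The 100 highest genes took 17.2% to 17.4% of counts in Ctrl, 17.9% to 18.2% in Cu-Cys and 29.8% to 31.1% in Cadict libraries. The TMM scaling that corrects for this had factors of 1.262 to 1.274, 1.206 to 1.209 and 0.6395 to 0.6654, and values below are TMM CPM (CPM of the scaled library) unless another unit is named. With plain library totals in place of TMM, the median change of all tested genes in Cadict against Ctrl moved by -0.95 on the log2 scale, so changes below are relative to the TMM scale. In bulk RNA, less RNA per cell and fewer cells cannot be told apart. Of the marker lists used to check the label, the 9 epithelial and colon markers summed to 4.22 to 6.24 TPM in Ctrl, 3.50 to 3.95 TPM in Cu-Cys and 11.5 to 13.3 TPM in Cadict libraries, with Cdh1 and Krt19 as the 2 at 1 TPM or more in all libraries and Epcam and Cldn4 at 0 TPM in Ctrl. The 4 fibroblast markers summed to 261 to 283, 132 to 138 and 21.3 to 26.7 TPM, mostly Col1a2. The 5 haematopoietic and 3 endothelial markers summed to at most 1.35 TPM in any library. The epithelial markers Krt20 and Cdx2 and the haematopoietic markers Cd3e and Adgre1 were not among the genes of the data and are missing from these sums. The part of these marker differences in the results below was not tested.

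The summed count of Zfp genes was taken as a share of all reads. This share of counts was 0.812%, 0.802% and 0.810% in Ctrl, 0.773%, 0.805% and 0.786% in Cu-Cys and 0.411%, 0.383% and 0.432% in Cadict libraries. All Cadict libraries lay below all others, whereas Cu-Cys replicate 2 lay within the Ctrl range. The means were 0.808% ± 0.00554, 0.788% ± 0.0161 and 0.408% ± 0.0247 (SD, n = 3 each). An exact two-sided permutation test of 3 against 3 libraries gave p = 0.1 for Cadict against Ctrl and for Cadict against Cu-Cys, the smallest value this design allows, and p = 0.2 for Cu-Cys against Ctrl. On this scale of plain library totals the typical tested gene was also lower in Cadict against Ctrl, with a median over all 11949 genes of -1.08 (log2).

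In Cadict against Ctrl, the question was which Zfp genes changed and whether other genes of like level changed in the same way. Calls used the study's threshold, a change of 2-fold or more with adjusted p no higher than 0.001. Of the 309 Zfp genes, 149 were lower (48.2%) and 22 higher (7.12%), where 27.1% of all tested genes were lower and 20.7% higher. Their median log2 fold change was -0.99 (middle range, 25th to 75th percentile, -2.01 to -0.05), against -0.13 over all tested genes. Of the 149 lower genes, 78 fell by 4-fold or more and 28 by 8-fold or more, beside 1358 and 465 of the 3235 lower genes among all tested. The median Zfp gene stood at 11.8 to 12.2 TMM CPM in Ctrl libraries and 5.61 to 5.84 TMM CPM in Cadict libraries. With library totals the split was 231 lower and 4 higher genes, when 51.5% of all tested genes were lower and 6.93% higher, and the Zfp median stayed lower than that of all tested genes by -0.85, against -0.86 with TMM. Library totals shift all genes by nearly the same amount, -0.95 at the median, which is less than the 2-fold limit of a call. The near-equal gap and the kept signs of all 149 lower and all 22 higher genes were therefore set in advance. In limma on TPM, 6 of the 22 higher genes turned negative.

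**Figure D1:**
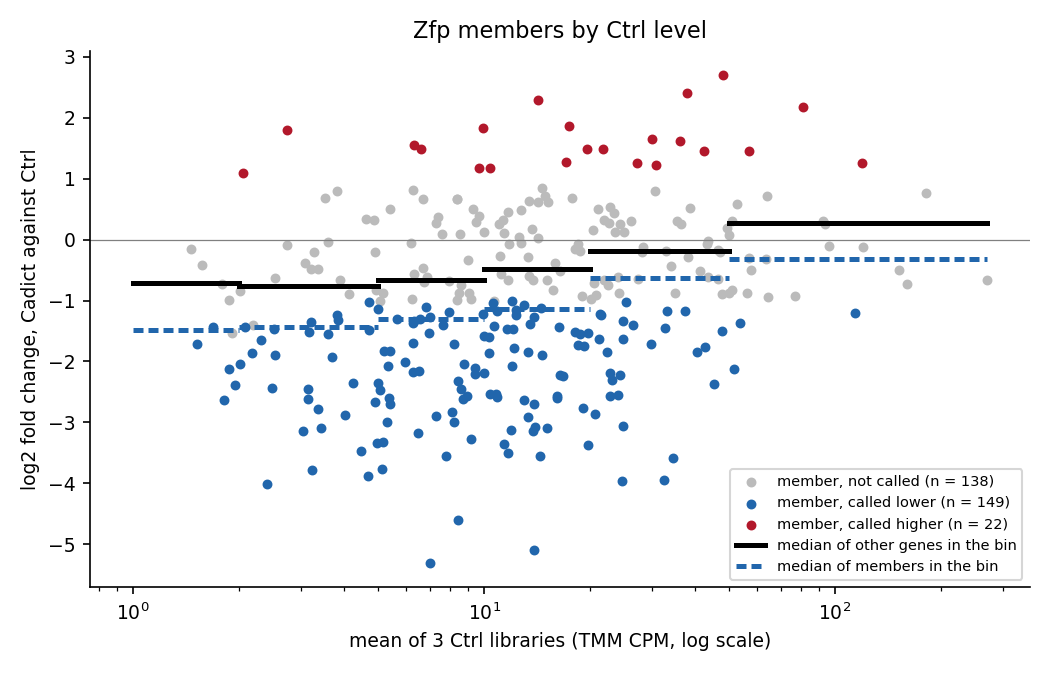
Log2 fold change in Cadict against Ctrl (y axis) of each of the 309 Zfp genes by its mean over 3 Ctrl libraries (x axis, TMM CPM, log scale), coloured by call. Solid bars are the medians of all other tested genes in a bin of Ctrl level and dashed bars the medians of the Zfp genes, which lie lower in each bin drawn.

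In the bins of Ctrl level that hold Zfp genes, the share of other genes called lower varied from 16.6% at 50 TMM CPM or more to 42.6% between 5 and 10 TMM CPM. Zfp genes were therefore set beside all other tested genes of the same Ctrl level. No Zfp gene lay under 0.5 TMM CPM in Ctrl. The other genes there could pass the filter mainly through another group, and 72.6% were called higher and 0.943% lower. Between 2 and 5 TMM CPM, 30 of 49 Zfp genes were called lower (61.2%), as were 42.2% of 825 other genes. Between 5 and 10 TMM CPM these shares were 56.3% of 71 Zfp genes and 42.6% of other genes, and between 10 and 20 TMM CPM 54.9% of 82 and 36.8%. Between 20 and 50 TMM CPM they were 36.1% of 72 and 27.1%, and at 50 TMM CPM or more 12% of 25 Zfp genes and 16.6% of other genes. The Zfp share called lower was thus the larger in 5 of the 6 bins that hold Zfp genes, the exception being the highest. The median log2 fold change was the lower for Zfp genes in all 6 bins, from -1.48 against -0.72 in the lowest to -0.32 against 0.28 in the highest. With bins of Ctrl TPM, which is per length, the Zfp share called lower was larger in 5 of 7 bins, the exceptions being 20 to 50 TPM (16.2% against 25.9%) and 50 TPM or more (0% of 10 Zfp genes against 11.3%). Between 1 and 2 TPM the shares were 35.7% of 14 Zfp genes and 35.6%, and between 20 and 50 TPM the median of Zfp genes was -0.10 against -0.17 for other genes. Zfp transcripts were also somewhat longer, with a median of 3376 bases against 2982.5 bases for other genes. Within each quartile of transcript length a larger share of Zfp genes than of other genes was lower, from 26.7% against 17.1% in the shortest to 49.4% against 30.4% in the longest.

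The largest falls among genes with a mean of at least 5 TMM CPM left little RNA. Zfp41 stood at 14.6, 13.8 and 13.3 TMM CPM in Ctrl, 11.3, 10.9 and 11.1 in Cu-Cys and 0.255, 0.523 and 0.420 in Cadict libraries. Zfp763 stood at 8.39, 7.71 and 9.20 in Ctrl, 7.52, 8.32 and 7.11 in Cu-Cys and 0.425, 0.436 and 0.168 TMM CPM in Cadict libraries. For both, no Cadict library came near any other library. Their log2 fold changes were -5.10 ± 0.18 (SE, derived from the test statistic, adjusted p = 3.9e-13) and -4.60 ± 0.24 (adjusted p = 3.9e-11). These rest on few reads in Cadict libraries, 14 counts in all for Zfp41 and 12 for Zfp763. From the summed counts alone the ratio was 34.9-fold (95% counting interval 20.7 to 64.1) for Zfp41 and 24.7-fold (14 to 48.1) for Zfp763, where the interval covers counting error only. Both intervals are wider than the SE implies, so the SE understates the error of genes with so few counts.

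Zfp386 had 25.3, 23.4 and 25.3 TMM CPM in Ctrl, 24.6, 27.3 and 24.9 in Cu-Cys and 1.61, 1.39 and 1.68 in Cadict libraries, a log2 fold change of -3.97 ± 0.12 (adjusted p = 9.2e-14). Zfp318, known for its part in the switch between IgM and IgD transcripts in B cells, had 31.0, 33.6 and 33.0 in Ctrl, 31.4, 31.0 and 30.8 in Cu-Cys and 2.38, 1.74 and 2.18 TMM CPM in Cadict libraries (-3.95 ± 0.11, adjusted p = 2.2e-14). In both genes the Cu-Cys libraries overlapped or lay beside the Ctrl libraries, and the Cadict libraries lay far below. Zfp395, which binds the promoter of the Huntington disease gene, had 35.1, 33.9 and 34.7 in Ctrl, 26.6, 25.9 and 29.7 in Cu-Cys and 3.23, 3.14 and 2.27 TMM CPM in Cadict libraries (-3.59 ± 0.11, adjusted p = 1.2e-13). Zfp974 had 12.9, 11.2 and 11.0 in Ctrl, 8.05, 7.49 and 6.14 in Cu-Cys and 1.10, 0.970 and 1.03 TMM CPM in Cadict libraries (-3.50 ± 0.18, adjusted p = 4.3e-11), with 16.8% of its 50-base stretches shared with another gene. For Zfp395 and Zfp974 the Cu-Cys libraries lay between the other groups and overlapped neither. The remaining 2 of the 8 largest falls were Zfp661 (-3.56 ± 0.25), whose Cadict libraries spread from 0.170 to 1.09 TMM CPM, and Zfp799 (-3.55 ± 0.18), from 0.872 to 1.70 TMM CPM.

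The lowest log2 fold change of all 309 genes belonged to Zfp324, which is below the mean level set for the genes named so far and is named after its values were seen. It had 6.53, 7.49 and 7.06 TMM CPM in Ctrl, 4.94, 6.13 and 5.56 in Cu-Cys and 0.170, 0.261 and 0.084 in Cadict libraries, the last from 6 counts in all. Its summed counts gave a 41.2-fold ratio with a 95% counting interval of 18.8 to 113. In 18 Zfp genes at least 1 Cadict library held 3 counts or fewer.

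The rises were fewer and included genes of ribosome assembly. Zfp330 stood at 44.9, 49.2 and 49.2 TMM CPM in Ctrl, 54.9, 52.0 and 52.2 in Cu-Cys and 297, 329 and 304 in Cadict libraries. Zfp622, the homologue of the yeast 60S ribosomal subunit maturation factor Rei1, stood at 36.8, 38.3 and 38.7 in Ctrl, 48.5, 42.2 and 46.2 in Cu-Cys and 192, 226 and 185 TMM CPM in Cadict libraries. Zfp593, the homologue of the 60S export factor Bud20, stood at 13.3, 14.6 and 14.7 in Ctrl, 18, 19.7 and 19.8 in Cu-Cys and 65.8, 76.5 and 67.5 TMM CPM in Cadict libraries. In all 3 genes every Cadict library exceeded every other library, and every Cu-Cys library exceeded every Ctrl library. In Cadict against Ctrl, Zfp330 had a log2 fold change of 2.70 ± 0.06 (adjusted p = 1.7e-15), Zfp622 of 2.41 ± 0.08 (adjusted p = 1.1e-13) and Zfp593 of 2.3 ± 0.08 (adjusted p = 1.7e-13), and library totals gave 1.74, 1.45 and 1.34. Zfp367 had 83.2, 79.8 and 79.9 in Ctrl, 89.1, 98.0 and 88.3 in Cu-Cys and 380, 337 and 381 TMM CPM in Cadict libraries (2.18 ± 0.06, adjusted p = 2.9e-14; library totals 1.22). Zfp330, Zfp622, Zfp593 and Zfp367 were the 4 genes still called higher with library totals.

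The next rises were Zfp979 (1.87 ± 0.07), Zfp672 (1.83 ± 0.08), Zfp978 (1.8 ± 0.15) and Zfp655 (1.65 ± 0.08), and with library totals their log2 fold changes were 0.92, 0.88, 0.85 and 0.70, none of them called. Zfp672 stood at 10.4, 9.09 and 10.3 in Ctrl, 11.3, 11.7 and 11.9 in Cu-Cys and 34.2, 36.7 and 35.5 TMM CPM in Cadict libraries, with no overlap between Cadict and the rest. Zfp978 and Zfp979 lie in a group of related genes on chromosome 4, and 77.4% and 26.7% of their 50-base stretches are shared with another gene, so their reads are uncertain. The other 14 higher genes had log2 fold changes of 1.09 to 1.62, and 0.14 to 0.66 with library totals.

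**Figure D2:**
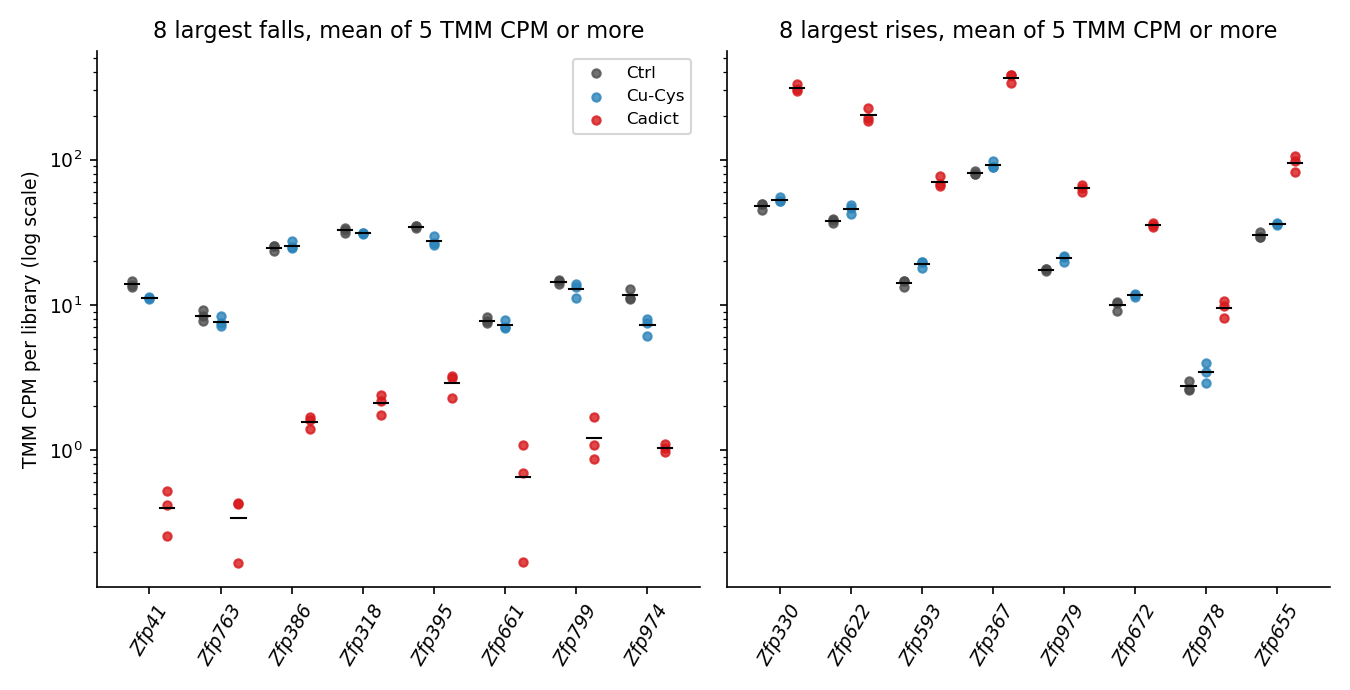
TMM CPM in each library (points, log scale) and group mean (bars) of the 8 largest falls (left) and the 8 largest rises (right) in Cadict against Ctrl among called Zfp genes with a mean of at least 5 TMM CPM. The 3 Cadict libraries lie apart from the 3 Ctrl libraries in every gene drawn because the rule for drawing a gene required it.

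Zfp genes with many fingers were called lower in a larger share than those with few. A finger was counted as a cysteine pair 2 or 4 residues apart, 12 further residues and a histidine pair 3 to 5 residues apart, in the translated GENCODE coding sequence, which 307 of the 309 genes had. The count ran from 0 to 36 with a median of 11. By this pattern 6 genes had 0 fingers, among them Zfp330, the largest rise of the 309. Of the 249 Zfp genes with 6 or more fingers, 131 were lower (52.6%) and 12 higher (4.82%), with a median log2 fold change of -1.15. Of the 58 with 5 or fewer, 16 were lower (27.6%) and 10 higher (17.2%), with a median of -0.14, which is close to the -0.13 of all tested genes. The lower genes had a median of 11 fingers, the genes not called 10 and the higher genes 7. Their median Ctrl levels also differed, at 9.98, 14.4 and 20.8 TMM CPM, and the finger classes were not compared at like Ctrl level. At least 1 linker was found in 88.4% of the 147 lower genes with a sequence, in 76.1% of the 138 genes not called and in 59.1% of the 22 higher genes. These differences between classes are counts and were not tested. Of 138 tested genes outside the Zfp set with 6 or more fingers, 57 were lower (41.3%) and 13 higher (9.42%), with a median of -0.88. By class, the share lower outside the Zfp set was 36.3% with 1 to 2 fingers and 37.5% with 3 to 5. It was 49.1% with 6 to 9, 38.9% with 10 to 14 and 31.0% with 15 or more, so it did not rise steadily with fingers.

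**Figure D3:**
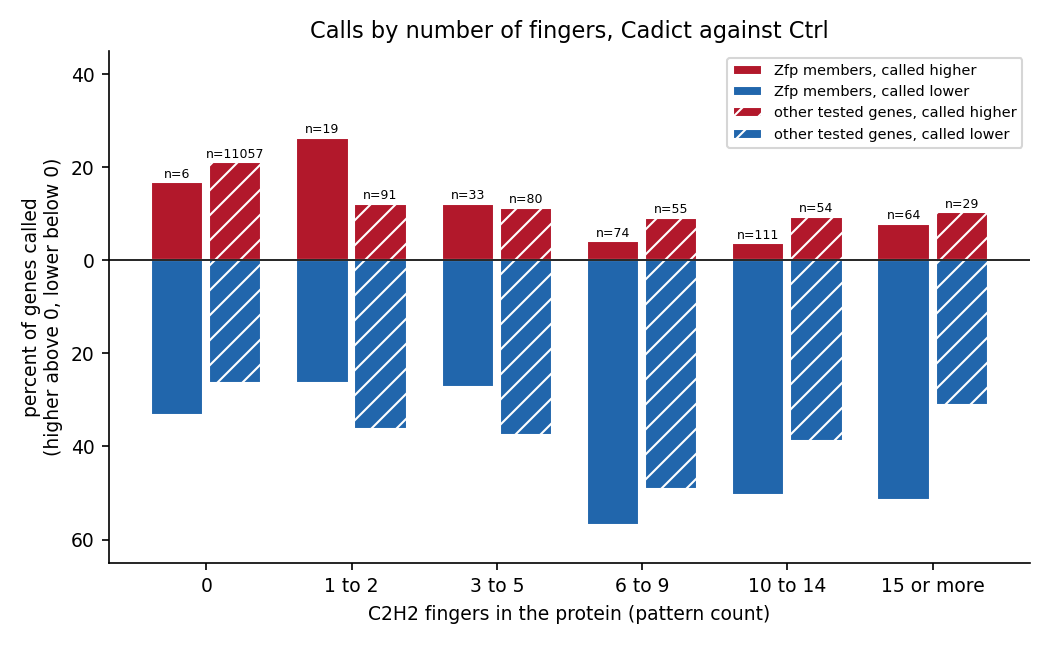
Percent of genes called higher (above 0) and lower (below 0) in Cadict against Ctrl by number of C2H2 fingers, for Zfp genes (plain) and other tested genes (hatched), with the number of genes above each pair. Among Zfp genes the lower share is 56.8%, 50.5% and 51.6% in the 3 classes with 6 or more fingers and 33.3%, 26.3% and 27.3% in the 3 classes with fewer.

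A KRAB box made less of a difference to the count of falls. By a strict pattern of the conserved part of the A box, 56 of 124 KRAB genes (45.2%) and 91 of 183 others (49.7%) were lower, with medians of -0.97 and -1.0. By a looser pattern, added after the data had been seen, 98 of 184 KRAB genes (53.3%) and 49 of 123 others (39.8%) were lower and 6 (3.26%) and 16 (13%) higher. Within the genes of 6 or more fingers the looser pattern gave 54.0% of 174 lower with and 49.3% of 75 without the box. So the share of lower genes among KRAB genes stood above or below that of the others by pattern used, and stood above the 27.1% of all tested genes by both.

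Zfp genes lie in clusters, chiefly on chromosome 7 (76 genes), chromosome 17 (40) and chromosome 13 (28). On these chromosomes 56.6%, 42.5% and 50% were lower. By the order of protein-coding genes in GENCODE, 152 Zfp genes stood beside another one, in 50 runs of up to 15 genes. Of 102 adjacent pairs, 25 were both lower, 0 both higher, 45 had 1 lower and 1 uncalled gene, 9 had 1 lower and 1 higher gene, 21 had neither called, and the rest had 1 higher and 1 uncalled gene. The share lower was 52.0% beside another Zfp gene and 43.9% of the 155 that stood apart. At a share of 52.0%, pairs both lower would be common without any likeness between neighbours. The pair counts by themselves therefore show no clustering of the changes, and no test was run. The longest run, 15 genes on chromosome 7 from Zfp84 to Zfp146, was mixed, with 5 lower and 2 higher genes and log2 fold changes from -3.14 to 1.46. A run of 6 genes on chromosome 6, picked out after its values were seen, was lower throughout, with a median of -2.62. In it Zfp746 (PARIS, a repressor of the PGC-1α gene) stood at 25.6, 25.5 and 23.7 TMM CPM in Ctrl, 24.7, 24.2 and 26.4 in Cu-Cys and 3.48, 2.18 and 3.27 in Cadict libraries. Its neighbour Zfp777 stood at 24.7, 23.7 and 23.8 in Ctrl, 22.3, 22 and 23.9 in Cu-Cys and 4.08, 4.44 and 3.78 TMM CPM in Cadict libraries. Their log2 fold changes were -3.06 ± 0.12 (adjusted p = 1.5e-12) and -2.55 ± 0.10 (adjusted p = 8.7e-13), and those of Zfp282, Zfp956, Zfp212 and Zfp398 were -2.87, -2.70, -1.63 and -1.15.

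Of 13 genes with known roles in RNA, ribosome and ubiquitin functions, 5 were higher (Zfp330, Zfp622, Zfp593, Zfp326 and Zfp706) and 1 lower, with a median log2 fold change of 0.69, where 20.7% of all tested genes were higher and 27.1% lower with a median of -0.13. Several of the 13 are abundant, and of other genes at 50 TMM CPM or more 27.1% were higher and 16.6% lower. Zfp326, a subunit of the DBIRD complex that links elongation to splicing, had 38.1, 33.5 and 37.0 in Ctrl, 35.2, 39.5 and 35.8 in Cu-Cys and 113, 110 and 110 TMM CPM in Cadict libraries (1.62 ± 0.06, adjusted p = 1.2e-12). Zfp706 went from 115, 121 and 120 to 268, 306 and 278 TMM CPM (1.26 ± 0.06, adjusted p = 4.9e-12), but its change was 0.30 with library totals and -0.05 in limma on TPM. Zfp638, an RNA-binding protein also known to silence unintegrated retroviral DNA, was the 1 lower gene, at 111, 113 and 119 in Ctrl, 116, 121 and 117 in Cu-Cys and 51.1, 46.6 and 50.6 TMM CPM in Cadict libraries (-1.21 ± 0.06, adjusted p = 8.1e-12). The other 7 were not called. Zfp598, the ubiquitin ligase that senses collided ribosomes, was at 0.58 with TMM and -0.37 with library totals. Zfp207 was at 0.76 and -0.19 and Zfp830, a spliceosomal protein, at 0.69 and -0.27 on these scales, so their sign depends on the scaling. Zfp451 was at -0.02, Zfp346 (JAZ, which binds double-stranded RNA) at -0.19, Zfp91 (a ubiquitin ligase) at -0.50 and Zfp106 at -0.66.

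Of 21 DNA-binding regulators, 9 were lower (42.9%) and 2 higher (9.52%), with a median of -0.12, beside 27.1%, 20.7% and -0.13 over all tested genes. Besides Zfp318, Zfp395 and Zfp746, the lower genes were Zfp652 (-2.21 ± 0.17), Zfp423 (-2.19 ± 0.10), Zfp219 (-1.63 ± 0.09), Zfp217 (-1.5 ± 0.07), Zfp263 (-1.45 ± 0.07) and Zfp503 (-1.19 ± 0.14). Zfp217, an oncogene amplified in breast cancer, stood at 48.7, 47.7 and 46.6 in Ctrl, 37.7, 38.4 and 39.5 in Cu-Cys and 17.6, 15.3 and 17.8 TMM CPM in Cadict libraries, so that the 3 groups did not overlap. The higher genes were Zfp277 (1.48 ± 0.07) and Zfp384 (1.45 ± 0.06), at 0.53 and 0.49 with library totals. Zfp384, which binds A-rich DNA, had 40.7, 43.0 and 42.8 in Ctrl, 49.4, 48.7 and 48.2 in Cu-Cys and 117, 106 and 121 TMM CPM in Cadict libraries. Zfp143 and Zfp335, activators that bind many promoters, Zfp148, Zfp281, Zfp703 and Zfp110 had log2 fold changes between -0.12 and 0.16. Zfp462 was at -0.52, and Zfp131, Zfp410 and Zfp292 were at 0.71, 0.53 and 0.25 with TMM and at -0.24, -0.42 and -0.70 with library totals, none called with TMM.

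Of 8 genes known from the silencing of retroelements and imprinted loci, 3 were lower, 0 higher, and the median was -0.69, beside 27.1% lower and 20.7% higher over all tested genes. Zfp961 had 23.7, 20.9 and 24.1 in Ctrl, 20.6, 23.3 and 20.8 in Cu-Cys and 3.06, 4.36 and 4.11 TMM CPM in Cadict libraries (-2.57 ± 0.12, adjusted p = 1.5e-11). Zfp932 was at -1.75 ± 0.12 and Zfp708 at -1.35 ± 0.22, with 37.0% and 94.9% of their 50-base stretches shared with another gene. The imprint regulators Zfp57 and Zfp445 were not called. Zfp57 had 26.5, 24.8 and 22 TMM CPM in Ctrl and 31.7, 31.5 and 23.9 in Cadict libraries, which overlap (0.25 ± 0.11, and -0.71 with library totals), and Zfp445 was at -0.93 ± 0.09. Zfp809, which silences murine leukemia virus, was at -0.21, Zfp568, which represses a placental Igf2 transcript, at -0.16 and Zfp646 at -0.44. Outside the 3 lists, 136 of 267 Zfp genes were lower (50.9%) and 15 higher (5.62%).

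**Figure D4:**
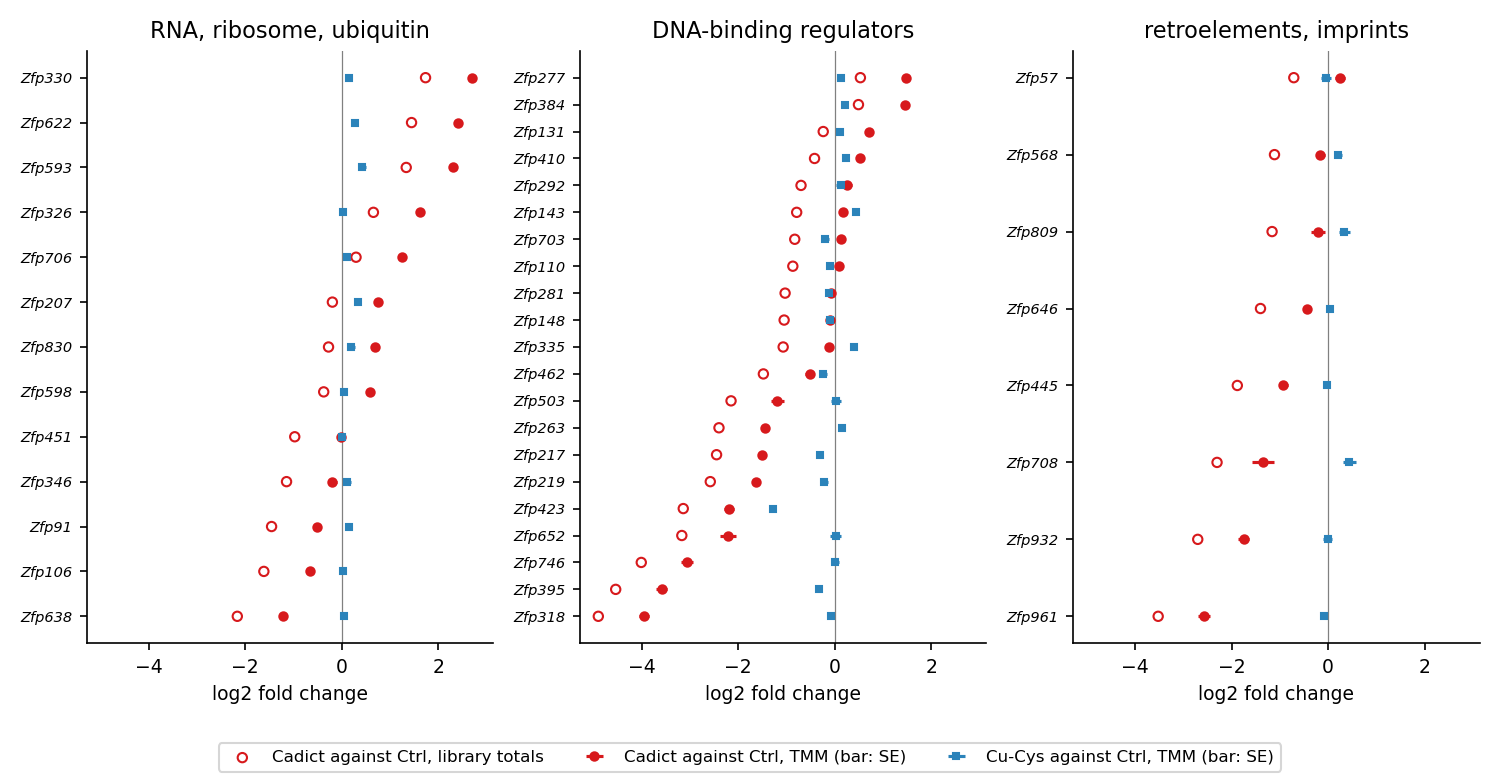
Log2 fold changes of the Zfp genes with known roles, in Cadict against Ctrl with TMM (filled circles, bars are SE) and with library totals (open circles), and in Cu-Cys against Ctrl with TMM (squares, bars are SE). Open circles lie to the left of filled ones throughout, and Zfp330, Zfp622 and Zfp593 stay furthest to the right on both scales.

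KRAB proteins act through partner proteins. Of 36 tested genes for corepressors, histone and DNA methyltransferases, HP1 and HUSH proteins and others, 7 were lower (19.4%) and 4 higher (11.1%), with a median of -0.19, beside 27.1%, 20.7% and -0.13 over all tested genes. Most of the 36 are abundant, and of other genes at 50 TMM CPM or more 16.6% were lower and 27.1% higher, with a median of 0.28. Trim28 and Setdb1 were not called, at -0.83 ± 0.07 and -0.66 ± 0.07. Chd4, a remodeller of the NuRD complex, was lower, at -1.61 ± 0.05. Zfp410, known as an activator of Chd4, was itself at 0.53 ± 0.07.

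Other C2H2 families named by symbol were called lower in shares between those of Zfp genes and of all tested genes. Of 39 Zbtb genes 18 were lower (46.2%) and 5 higher, with a median of -0.64. Of 18 tested Zscan and Zkscan genes 8 were lower (44.4%) and 3 higher (median -0.84), and of 20 tested Zfp genes with a letter after the number 8 were lower (40%) and 3 higher (median -0.30). Zbtb2 rose from 16.7, 17.0 and 16.6 to 272, 267 and 294 TMM CPM (4.05 ± 0.06, adjusted p = 6.8e-17), a larger rise than that of any of the 309 Zfp genes. Zbtb8b (3.72), Zscan29 (2.54) and Zfp729b (2.41) were also higher, and Zfp518b (-4.24), Zkscan8 (-3.51), Zfp512b (-3.50), Zbtb45 (-3.33) and Zscan22 (-2.65) lower.

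In Cu-Cys against Ctrl, Zfp genes changed little. At the 2-fold threshold 0 were higher and 1 lower, against 0.167% and 1.47% of all tested genes, both by edgeR and by DESeq2. At an unadjusted p under 0.05 there were 55 Zfp genes with positive and 56 with negative changes, beside 3170 and 3107 of the 11949 tested genes. In both directions this was a smaller share of Zfp genes than of all tested genes. With adjusted p no higher than 0.05 and any fold, 42 Zfp genes were higher (13.6%) and 44 lower (14.2%), where 22.6% and 22.4% of all tested genes were. Zfp genes had a lower median level than all tested genes, and shares at these 2 limits were not compared at like Ctrl level. At the 2-fold threshold, 0% of Zfp genes and 3.15% of other genes between 5 and 10 TMM CPM were lower. Between 20 and 50 TMM CPM, where the 1 called gene lay, these shares were 1.39% and 0.605%. The median log2 fold change was -0.005, against 0.007 over all tested genes.

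The 1 called gene was Zfp423, a regulator of preadipocyte commitment and cerebellar development. It stood at 22.9, 22.6 and 23.3 TMM CPM in Ctrl, 8.63, 9.01 and 10.5 in Cu-Cys and 5.18, 4.53 and 5.37 in Cadict libraries. The 3 groups did not overlap. The log2 fold change was -1.29 ± 0.08 (adjusted p = 3.5e-08) in Cu-Cys against Ctrl and -2.19 ± 0.10 (adjusted p = 1.3e-11) in Cadict against Ctrl, which share the Ctrl libraries. Below the 2-fold limit, the largest falls among Zfp genes with a mean of at least 5 TMM CPM and an adjusted p of 0.05 or less were those of Zfp974 (-0.69 ± 0.10, adjusted p = 0.0001), Zfp608 (-0.65 ± 0.13, adjusted p = 0.0011) and Zfp523 (-0.48 ± 0.10, adjusted p = 0.0019). Zfp608 had 13.3, 13.2 and 14 in Ctrl, 7.84, 8.64 and 9.35 in Cu-Cys and 6.12, 2.96 and 6.30 TMM CPM in Cadict libraries, where Cadict replicate 2 was the lowest.

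Under the same limits, the largest rise in Cu-Cys against Ctrl was that of Zfp428, from 3.89, 3.98 and 3.53 to 7.15, 6.08 and 7.07 TMM CPM (0.83 ± 0.12, adjusted p = 5.6e-05). Its Cadict libraries, at 6.20, 7.41 and 6.13, overlapped the Cu-Cys libraries, and its change in Cadict against Ctrl was 0.79 ± 0.13 with TMM but -0.16 with library totals. Zfp143, Zfp52 and Zfp593 followed, at 0.44 ± 0.07, 0.43 ± 0.09 and 0.43 ± 0.08. Zfp143, which activates small nuclear RNA genes and binds chromatin loop anchors, had 19.7, 19.9 and 21.5 in Ctrl, 26.9, 27.1 and 28.7 in Cu-Cys and 24.1, 20.9 and 23.3 TMM CPM in Cadict libraries. Zfp523 (ZNF76), its closest relative, was thus lower where Zfp143 was higher, each below 2-fold.

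**Figure D5:**
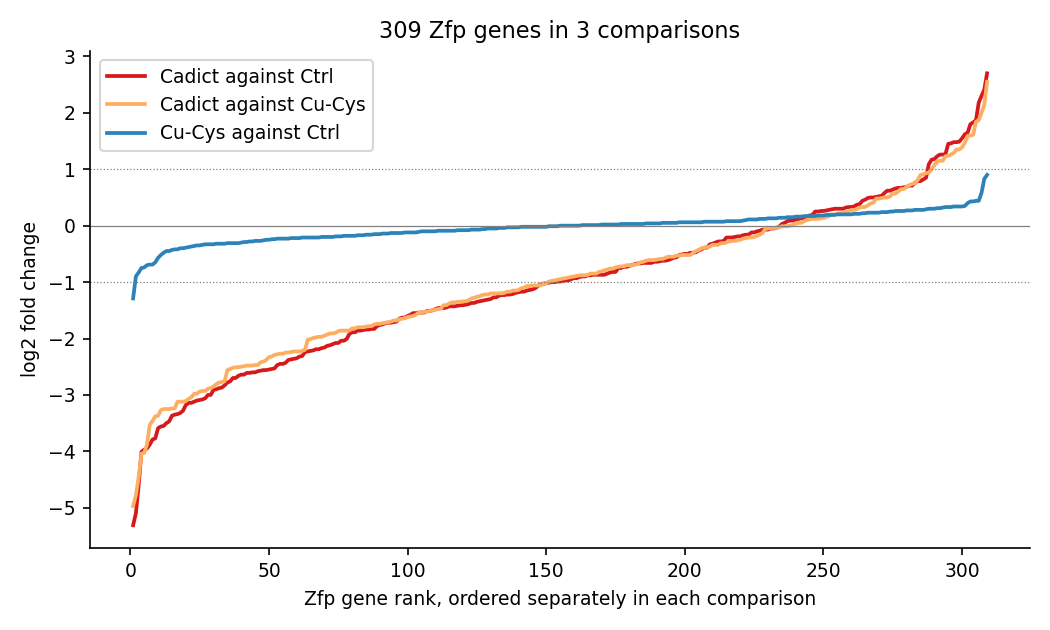
Log2 fold changes of the 309 Zfp genes, sorted from lowest to highest separately in Cadict against Ctrl, Cadict against Cu-Cys and Cu-Cys against Ctrl, with dotted lines at 2-fold. The Cadict curve against Ctrl runs from -5.31 to 2.70 and that against Cu-Cys from -4.97 to 2.55, whereas the Cu-Cys curve runs from -1.29 to 0.90.

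In Cadict against Cu-Cys, 146 Zfp genes were lower (47.2%) and 21 higher (6.80%), where 23.6% of all tested genes were lower and 18.6% higher, and the median was -0.95 against -0.099. This comparison shares the Cadict libraries with the one against Ctrl, so the 2 are not independent. Of the genes lower in either, 138 were lower in both, 11 against Ctrl alone and 8 against Cu-Cys alone, while 21 of the 22 higher genes were higher in both. Zfp991 was at -1.06 in Cadict against Cu-Cys and -0.73 in Cadict against Ctrl, with 155, 163 and 163 in Ctrl, 183, 218 and 204 in Cu-Cys and 96.7, 92.3 and 101 TMM CPM in Cadict libraries. Zfp423 was at -0.90 in this comparison, below the 2-fold limit.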

How the data were processed

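Messenger RNA of 9 MC38 libraries (3 per group) was sequenced, and the authors deposited 1 table with, per gene and library, an expected count (estimated reads, not normalized), a TPM and an FPKM. The submitters' processing notes name HISAT2 2.1.0, Bowtie2 2.3.4.3 and RSEM 1.3.1 and the builds GRCm39 and GRCh38.p13; their roles are not given in the sources used here. The deposited expected counts are not whole (more than 0.005 from a whole number in any library) in 75 of the 309 genes and were rounded. The 9 columns of counts divided by a size factor and 12 columns of group averages were not used. Columns named CC were read as Cu-Cys by its initials, and CCGE as Cadict, an inference from its components.

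Genes were kept by edgeR's filterByExpr, scaled by TMM and tested by one quasi-likelihood fit over 9 libraries (edgeR 4.0.16, R 4.3.3), adjusted by Benjamini-Hochberg over 11949 genes. Each SE given is the log2 fold change, without its sign, over the square root of the F statistic of this test. It is not a fitted standard error and can be too small for genes with few counts. A count of 0 allows up to 3 counts, or 0.130 to 0.261 TMM CPM. The fit was tested on simulated data for this design, with an outcome that is not given here. No conclusion about the choice of scaling is drawn from that simulation. Replicate numbers did not pair libraries (correlations of deviations -0.145 to 0.128), so no block was used. No pair of replicates agreed within sampling noise (chi-square per degree of freedom 1.886 to 23.251, highest for Cadict replicate 2).

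The members and lists were chosen with earlier results of these data known. Genes were named by rule: called in Cadict against Ctrl, at a mean of 5 TMM CPM or more with groups apart, the 8 largest falls and 8 largest rises; at an adjusted p of 0.05 or less in Cu-Cys against Ctrl and the same mean, the 4 largest falls and rises; the 5 highest Ctrl TPM; 3 lists of known roles; the 2 genes on either side of the floor; and the 3 largest changes of the partner list and of each family, of which some are not reported here. Alternatives were DESeq2 1.42.0 size factors and its Wald test, library totals, other filters, the replicate block, limma 3.58.1 on log2 of TPM (pseudocount 1) and FPKM (pseudocount 0.1), other floors and leaving out each library.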

Additional observations from a re-analysis of the deposited data

How the results depend on the processing

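With DESeq2 size factors the median Zfp change (log2) was -0.868 for Cadict and 0.022 for Cu-Cys against Ctrl and -0.86 for Cadict against Cu-Cys, and with the DESeq2 Wald test it was -0.896, 0.025 and -0.888. With library totals it was -1.932, -0.074 and -1.835, with 4 higher and 231 lower genes against Ctrl and 3 and 226 against Cu-Cys. Limma on TPM gave -1.561, -0.132 and -1.378, with 2 higher and 228 lower genes in Cadict against Ctrl and 1 higher in Cadict against Cu-Cys. Limma on FPKM gave -1.831, -0.08 and -1.682, with 5 and 227 genes against Ctrl and 4 and 224 against Cu-Cys. The cause of these shifts was not tested. With at least 10 counts in every library, which leaves fewer genes, the medians of Cadict against Ctrl and Cu-Cys were -0.813 and -0.765, and with no filter -1.066 and -1.042. A floor of 1000 counts, which leaves 223 genes, gave 93 lower genes in each, medians of -0.751 and -0.726, and shares of counts of 0.764% in Ctrl and 0.749% in Cu-Cys. With adjusted p no higher than 0.05 and any fold, 62 genes were higher in Cadict than in Ctrl, 53 were higher in Cadict than in Cu-Cys, and 42 were higher and 44 were lower in Cu-Cys than in Ctrl. As a share of TPM, Zfp genes took 0.393%, 0.371% and 0.184% in Ctrl, Cu-Cys and Cadict.

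Leaving out each library in turn gave 148 to 155 lower and 21 to 22 higher genes in Cadict against Ctrl (median -1.038 to -0.947), 144 to 150 and 20 to 22 in Cadict against Cu-Cys (median -1.031 to -0.936) and 1 lower and 0 higher in Cu-Cys against Ctrl (median -0.029 to 0.002). The shares of counts ran from 0.806% to 0.811% in Ctrl, 0.780% to 0.796% in Cu-Cys and 0.397% to 0.421% in Cadict. Zfp112, at 207 counts in all, lost its call in Cadict against Ctrl without Ctrl replicate 1, Ctrl replicate 2 or Cadict replicate 3 (-1.65, -1.58 and -1.55). The fit with the replicate block gave 149 lower and 22 higher genes in Cadict against Ctrl (median -0.99), 146 and 21 in Cadict against Cu-Cys (-0.952) and 1 and 0 in Cu-Cys against Ctrl (-0.005). Without the 61 genes that share 10% or more of their stretches, a setting chosen after seeing the data, 121 of 248 were lower and 17 higher in Cadict against Ctrl (median -0.98).

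Among the genes named by rule with an adjusted p of 0.05 or less in Cadict against Ctrl, the log2 fold changes that were positive with TMM and turned negative with library totals, in limma on TPM and in limma on FPKM were, in that order, Zfp428 -0.16, -0.56 and -0.30, Zfp52 -0.51, -0.83 and -0.54, Zfp207 -0.19, -0.51 and -0.17, Zfp598 -0.37, -0.67 and -0.34, Zfp830 -0.27, -0.57 and -0.27, Zfp410 -0.42, -0.71 and -0.40, Zfp292 -0.70, -0.90 and -0.69, Zfp131 -0.24, -0.54 and -0.21 and Zfp57 -0.71, -1.04 and -0.74. Among the genes named by rule with an adjusted p of 0.05 or less in Cadict against Cu-Cys, the log2 fold changes that were positive with TMM and turned negative with library totals, in limma on TPM and in limma on FPKM were, in that order, Zfp207 -0.47, -0.71 and -0.44, Zfp598 -0.36, -0.59 and -0.33, Zfp830 -0.40, -0.62 and -0.40, Zfp410 -0.59, -0.79 and -0.56, Zfp703 -0.56, -0.77 and -0.56, Zfp131 -0.27, -0.51 and -0.25, Zfp110 -0.71, -0.93 and -0.70 and Zfp57 -0.60, -0.86 and -0.62. Other Zfp genes with small positive changes also turned, such as Zfp143 (0.16 with TMM, -0.79 with library totals). Zfp706 turned negative in limma on TPM alone, at -0.05 against Ctrl and -0.02 against Cu-Cys. Genes with few counts in Cadict libraries are limited by depth, as the counting intervals given for Zfp41, Zfp763 and Zfp324 show.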
